A study of Homo sapiens with 4 samples.

Results

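Oxidative phosphorylation is the work of 5 protein complexes in the inner mitochondrial membrane. Complexes I to IV pass electrons from NADH and succinate to oxygen and, except for complex II, pump protons, and complex V, the ATP synthase, uses the proton gradient to make ATP. Nuclear genes encode most subunits, which are joined in the mitochondrion by a small set made from mitochondrial DNA. Erythroid cells also use their mitochondria to make heme, and lose them as they mature.

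The nuclear genes of these complexes were compared between KLF3-knockdown and control K562 cells, a human erythroleukemia line with erythroid features. KLF3 is a zinc-finger repressor of the Krüppel-like factor family that binds CACCC and related GC-rich boxes. The control cells carried a control shRNA and the others an shRNA against KLF3, both cultured without further treatment, and each line was profiled on 2 Illumina bead arrays. The second array of each line is marked as a repeat, and nothing given says whether it came from a separate culture, so the tests see only array-to-array spread, which may be technical. Each condition stands for 1 line.

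Members were taken by current gene symbol: those beginning with NDUF (complex I), SDHA to SDHD (complex II), UQCR together with CYC1 (complex III), COX4 to COX8 (complex IV) and ATP5 (complex V), without pseudogenes. The rule gave 101 genes, of which 86 are structural subunits, 12 are assembly factors that carry an NDUFAF or SDHAF symbol, 1 is the inhibitor ATP5IF1 and 2 are readthrough transcripts. Of the 101, 84 were measured, among 9530 genes measured in all, and each of the 84 was detected on all 4 arrays. Those without a listed probe, 6 in all, included SDHB, UQCRFS1, ATP5MGL and both readthrough transcripts. The other 11 were not well above background: NDUFA5, NDUFB1, NDUFB4, NDUFS6, COX4I2, COX6A2, COX6B2, COX7A1, COX7B2, COX8C and ATP5MK. Of these, NDUFB1 was detected on 1 array of each line and NDUFA5 on 1 knockdown array.

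The arrays held 16182 and 15934 detected probes in the control line and 15479 and 15534 in the knockdown line. Both KLF3 probes were undetected on every array, the brighter one at intensities of 130 and 143 in the control line and 139 and 139 in the knockdown line, so the knockdown could not be checked here. Of 12 erythroid markers, 11 had a probe and were detected on all 4 arrays, and 7 of them were higher in the knockdown line. Their summed linear signal was 44439 to 45331 in the control and 82306 to 82788 in the knockdown line. The 4 T cell and 5 fibroblast markers were not well above background. CD79B of 4 B cell markers and CD14 of 3 monocyte markers were higher in the knockdown line at summed signals under 86, none of the 4 and 3 being detected on all 4 arrays. KRT8, KRT18 and EPCAM of 4 epithelial markers were detected on all 4 arrays, and only KRT8 of these changed, by -0.47 on the log2 scale. The part of these marker differences in the results was not tested.

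Most oxidative phosphorylation genes moved little between the lines. On the log2 scale of normalized signal, differences of knockdown minus control ran from -0.50 to 0.89 over the 84 genes. Their median was 0.04, against -0.01 over all genes, and the median absolute difference was 0.14, against 0.24 over all genes. None of the 84 passed the test with a 2-fold change. Of all 9530 genes, 153 rose and 164 fell by at least that much, which is also a small share. Each array averages many cells, so fewer cells of a type and less RNA per cell cannot be told apart.

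A gene is said to rise or fall where its limma adjusted p, over all 9530 genes, was under 0.05. By this test 17 members rose and 6 fell, together 27.4% of the 84, and 61 did not pass. Over all genes 40.0% passed, 19.4% higher and 20.7% lower. Among members the share that rose, 20.2%, was thus near the background, and the share that fell, 7.14%, was below it. Both knockdown arrays lay above both control arrays for 37 members and below them for 22, where 35.3% of all genes lay above and 38.3% below, and for 25 the lines overlapped. Between replicate arrays the differences of the 84 members had an SD of 0.10 in the control and 0.11 in the knockdown line.

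The count rested on few arrays, and over all genes too, fewer passed in each direction when 1 array was left out. Leaving out 1 array left between 5 and 12 members higher and between 0 and 3 lower, and none fell without control array 1 or without control array 2. Of the 23 calls, 4 held in each of the 4 fits that left out 1 array (NDUFB10, NDUFA6, NDUFS7 and UQCRC2), and 7 held in none of them. The same 4 genes held under each of the 12 alternatives tried, among which these 4 fits are counted.

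**Figure D1:**
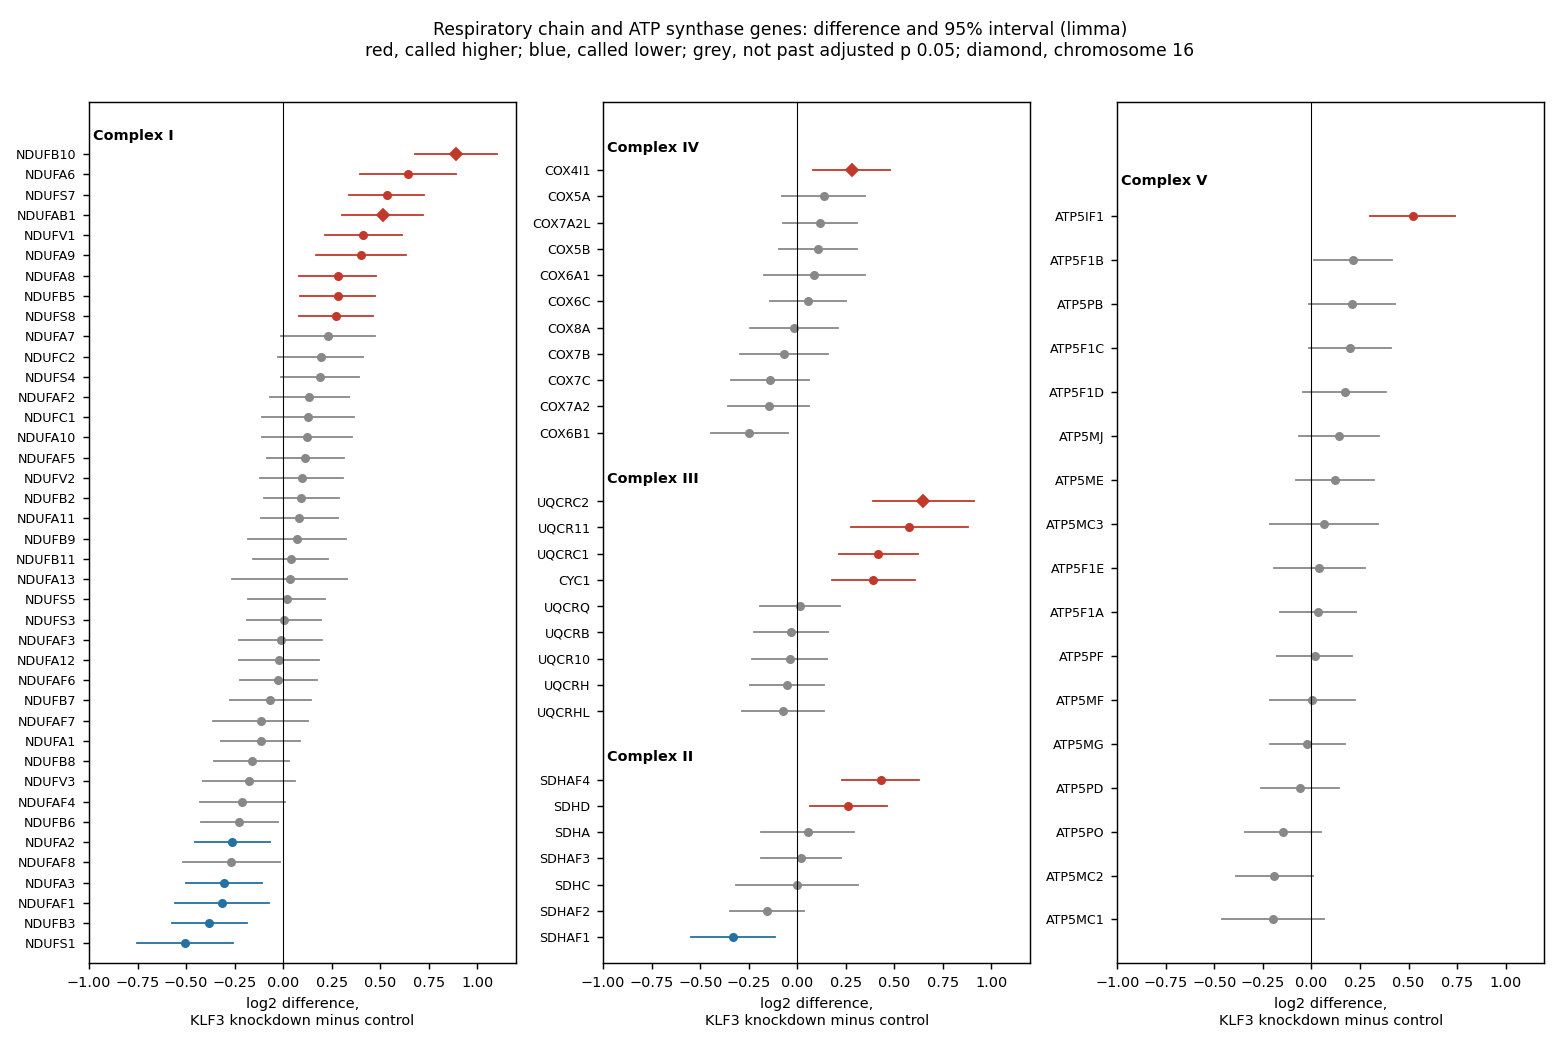
Log2 difference of knockdown minus control (horizontal axis) for the 84 measured genes, by complex, with limma's 95% interval as a line. Red genes rose, blue genes fell, grey genes did not pass the adjusted p of 0.05, and diamonds mark chromosome 16. In complexes I, II and III 35%, 42.9% and 44.4% of genes passed, against 40.0% of all genes. In complexes IV and V 9.09% and 5.88% passed, and all 16 measured subunits of complex V are grey.

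Complex I, the NADH dehydrogenase, makes up 40 of the 84 measured members, and 35% of its genes passed, against 40.0% of all genes. The 4 structural subunits that fell were all of complex I. Of its 32 measured subunits 9 rose and 4 fell, with a median of 0.09, and of its 8 assembly factors none rose and 1 fell, with a median of -0.07. The core subunits carry the flavin, iron-sulphur clusters and quinone site, and 3 of the 6 nuclear ones measured rose while 1 fell. Of 26 accessory subunits, which surround the core, 6 rose and 3 fell.

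NDUFB10, an accessory subunit of the membrane arm, showed the largest difference of any member. Its log2 signal was 10.77 and 10.71 in the control line and 11.58 and 11.69 in the knockdown line. The lines were far apart relative to either pair, and NDUFB10 was 1.85-fold higher in the knockdown line (log2 difference 0.89, SE 0.09, limma adjusted p = 0.00105). NDUFA6, an accessory subunit of the LYR-motif family, measured 9.06 and 8.87 in the control and 9.68 and 9.54 in the knockdown line. Both knockdown values exceeded both control values, a 1.56-fold rise (log2 difference 0.64, SE 0.10, limma adjusted p = 0.00511). NDUFS7, which carries the last iron-sulphur cluster before ubiquinone, measured 11.31 and 11.30 against 11.82 and 11.86. Its replicate arrays nearly coincided and the rise was 1.45-fold (log2 difference 0.53, SE 0.08, limma adjusted p = 0.00409).

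NDUFAB1, the mitochondrial acyl carrier protein that also sits in complex I, measured 11.32 and 11.39 in the control and 11.82 and 11.92 in the knockdown line. The lines did not overlap (log2 difference 0.51, SE 0.09, limma adjusted p = 0.00617, 0.0515 without control array 1). NDUFV1, the subunit that binds FMN and oxidises NADH, measured 11.42 and 11.42 in the control line and 11.87 and 11.79 in the knockdown line. It rose 1.33-fold (limma adjusted p = 0.0104), a call lost without control array 1 (0.0658) or 2 (0.0683). NDUFA9, an accessory subunit near the quinone site, measured 9.18 and 9.21 against 9.69 and 9.50. Here the first knockdown array stood higher than the second, and the rise of 0.40 on the log2 scale (limma adjusted p = 0.0197) kept its call only without knockdown array 2 (0.0153). NDUFA8, NDUFB5 and NDUFS8 rose least among the subunits of complex I that passed, each 1.21-fold. Their limma adjusted p-values lay between 0.0342 and 0.0366, and all of them lost the call whichever array was left out. NDUFS8 is a core iron-sulphur subunit, and NDUFA8 and NDUFB5 are accessory.

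Against these, NDUFS1, the largest core subunit, fell by 0.50 on the log2 scale. It was dim, at 6.52 and 6.50 in the control and 6.12 and 5.89 in the knockdown line, and the knockdown arrays were both lower (1.42-fold lower, SE 0.10, limma adjusted p = 0.0109). Without control array 1 or 2 the adjusted p was 0.0696 or 0.0628. NDUFB3, an accessory membrane-arm subunit, measured 11.87 and 11.91 against 11.51 and 11.52, with tight replicates in both lines. It was 1.30-fold lower (limma adjusted p = 0.0123, 0.0653 and 0.0831 without control array 1 and 2), and a second probe for NDUFB3 gave a difference of -0.63. NDUFA3, another accessory subunit, measured 11.48 and 11.55 against 11.21 and 11.21 (limma adjusted p = 0.0272). NDUFA2, also accessory, measured 11.83 and 11.80 against 11.56 and 11.54 (limma adjusted p = 0.0409). In both the knockdown arrays were lower, but each call was lost whichever array was left out, with adjusted p from 0.0607 to 0.143 for NDUFA3 and from 0.0767 to 0.182 for NDUFA2. The assembly factor NDUFAF1 measured 9.12 and 9.08 against 8.89 and 8.67, a fall at limma adjusted p = 0.0472. It held only without knockdown array 1 (0.0222). The remaining 26 genes of complex I did not pass, among them the core subunits NDUFV2 at 0.10 and NDUFS3 at 0.00.

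**Figure D2:**
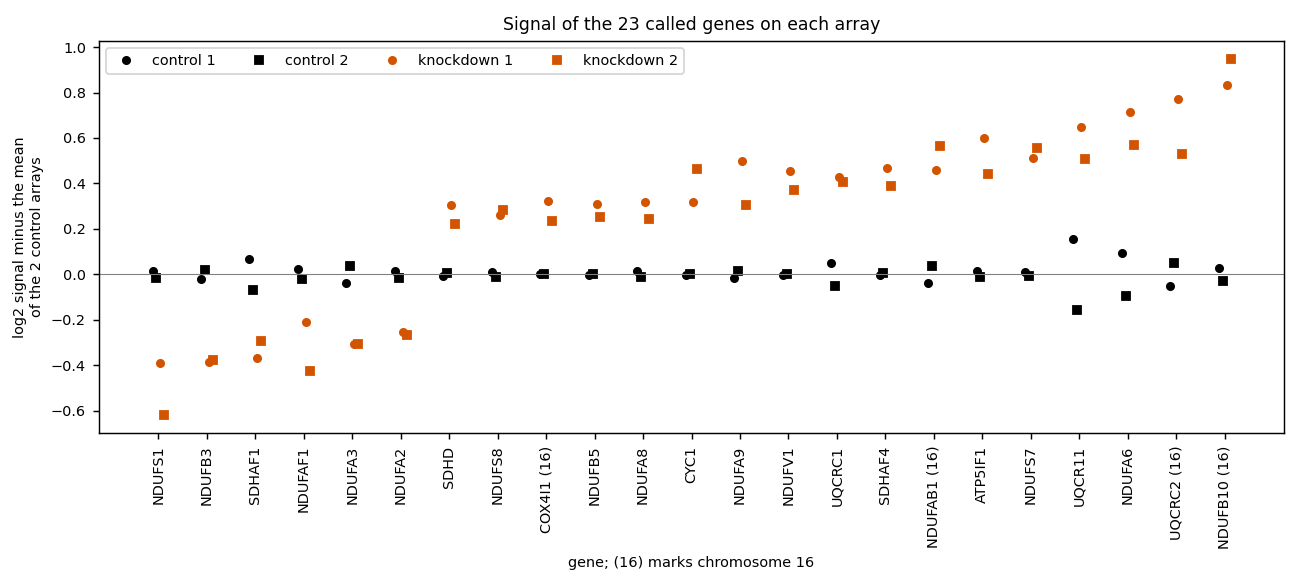
Log2 signal on each array minus the mean of both control arrays (vertical axis) for the 23 genes that passed, ordered by difference, with black symbols for control and orange symbols for knockdown arrays. UQCR11 has the widest control pair (7.57 and 7.26). In none of the 23 do the lines overlap, which passing the test itself favours. Over all genes both knockdown arrays lay above both control arrays for 35.3% and below them for 38.3%.

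Complex II, succinate dehydrogenase, links the citric acid cycle to the chain and is wholly nuclear-encoded. Its catalytic flavoprotein SDHA did not pass, at 10.16 and 10.02 in the control and 10.23 and 10.07 in the knockdown line. The lines overlapped (log2 difference 0.05, 95% interval -0.19 to 0.29, limma adjusted p = 0.686). A second SDHA probe differed by 0.40, with both knockdown arrays above the control arrays and an adjusted p of 0.0707 over probes. SDHC, one of the membrane anchors, measured 9.21 and 9.17 against 9.37 and 9.0, so the knockdown arrays enclosed the control arrays (95% interval -0.32 to 0.31, limma adjusted p = 0.986). A second SDHC probe differed by 0.31, with an adjusted p of 0.034 over probes. SDHD, the other anchor, measured 9.84 and 9.85 against 10.15 and 10.07. Both knockdown arrays were higher (log2 difference 0.26, SE 0.08, limma adjusted p = 0.0451), a call lost whichever array was left out (0.0604 to 0.178).

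Among complex II assembly factors the directions differed. SDHAF4, which acts on the flavinated SDHA, was dim at 6.19 and 6.20 in the control and 6.66 and 6.59 in the knockdown line. The lines were well apart, a 1.35-fold rise (limma adjusted p = 0.00915, 0.0629 and 0.0611 without control array 1 and 2). SDHAF1, which helps place iron-sulphur clusters in SDHB, measured 10.14 and 10.01 against 9.71 and 9.78. It was 1.26-fold lower (limma adjusted p = 0.0291), but this call was lost whichever array was left out (0.0509 to 0.163). Its other 2 probes gave -0.22 and 0.24, and averaged over its probes SDHAF1 differed by -0.10 without passing (limma adjusted p = 0.365). SDHAF2 at -0.16 and SDHAF3 at 0.02 did not pass.

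Complex III, the cytochrome bc1 complex, held 4 genes that rose among 9 measured and none that fell (44.4%, against 19.4% of all genes higher). UQCRC2, one of the large core proteins, measured 9.28 and 9.38 in the control and 10.10 and 9.86 in the knockdown line. Both knockdown arrays were clearly higher (1.57-fold, log2 difference 0.65, SE 0.11, limma adjusted p = 0.00584). UQCRC1, the other core protein, measured 9.93 and 9.83 against 10.30 and 10.28. Its knockdown arrays nearly coincided (1.34-fold, limma adjusted p = 0.0108, 0.077 without control array 2). CYC1, cytochrome c1, which hands electrons to cytochrome c, measured 11.10 and 11.11 against 11.42 and 11.57. It rose 1.31-fold (limma adjusted p = 0.0162), and kept the call only without knockdown array 1 (0.016). The small subunit UQCR11 measured 7.57 and 7.26 against 8.06 and 7.92, the widest control pair among the genes that passed. The lines still did not overlap (1.49-fold, SE 0.13 on the log2 scale, limma adjusted p = 0.0139, 0.0725 without control array 2).

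The remaining subunits of complex III differed by between -0.07 and 0.01. UQCRH, the hinge protein, and UQCRHL, a near-identical copy that its probes may not separate, differed by -0.05 and -0.07. UQCR10 depended on the probe. Its brightest probe, which stood for the gene, gave -0.04, at 8.89 and 8.83 against 8.81 and 8.83 (limma adjusted p = 0.718). Its remaining probes gave 0.62, at 7.68 and 7.60 against 8.22 and 8.31, and 0.57, at 7.33 and 7.26 against 7.79 and 7.95, with adjusted p-values over probes of 0.00542 and 0.00848. Averaged over its probes UQCR10 differed by 0.38 (limma adjusted p = 0.0137).

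Complex IV, cytochrome c oxidase, reduces oxygen, and several of its nuclear subunits have forms typical of muscle, lung or testis. Of 11 measured subunits 1 rose, none fell, and the median was 0.05. The gene that rose was COX4I1, the common form of subunit 4, at 13.51 and 13.51 in the control line and 13.83 and 13.74 in the knockdown line. The lines did not overlap (1.21-fold, log2 difference 0.28, SE 0.08, limma adjusted p = 0.038), but the call held only without knockdown array 2 (0.0451). COX6B1 measured 11.80 and 11.83 against 11.61 and 11.53. Both knockdown arrays were lower, without passing the test (-0.25, limma adjusted p = 0.0551). The other 9 differed by between -0.15 (COX7A2) and 0.14 (COX5A).

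The isoforms differed in whether their probes were detected, in the same way in both lines. COX4I2, COX6A2, COX6B2, COX7A1, COX7B2 and COX8C stayed undetected in both lines, while COX4I1, COX6A1, COX6B1, COX7A2, COX7B and COX8A were detected on all 4 arrays. A COX6B2 probe came near the detection cut-off of 0.01 on control array 1 (detection p 0.0117). NDUFB4, NDUFS6 and ATP5MK, which are not tissue forms of this kind, were also undetected on every array. Whether a missing signal lay with the gene or its probe was not tested. Of the detected forms, COX6A1 differed by 0.09, COX7B by -0.07 and COX8A by -0.02 (limma adjusted p = 0.538, 0.59 and 0.894). COX7A2L, which takes part in joining complexes III and IV, differed by 0.12 (limma adjusted p = 0.281). COXFA4, the subunit once named NDUFA4 and counted with complex I, falls outside the symbol rule. It measured 12.10 and 12.12 against 11.97 and 11.99, a difference of -0.13 that did not pass (limma adjusted p = 0.242). COXFA4L2, its paralogue, was not measured.

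By its brightest probe, none of the 16 measured structural subunits of complex V passed limma's adjusted p in either direction. Over all genes 40.0% passed. At an unadjusted p under 0.05, 1 of the 16 subunits passed, against 4813 of all 9530 genes. The differences of the 16 ran from -0.20 to 0.21 with a median of 0.04, and the outermost bounds of their 95% intervals were -0.46 and 0.43. Both knockdown arrays were above the control arrays for 6 of them, below for 3, and the lines overlapped for 7. Over all genes 35.3% lay above and 38.3% below. The subunit with an unadjusted p under 0.05 was ATP5F1B, the catalytic beta subunit, at 14.37 and 14.44 against 14.66 and 14.58. Both knockdown arrays were higher, with a 95% interval of 0.01 to 0.42 and a limma adjusted p of 0.0839. Its partner in the catalytic head, ATP5F1A, differed by 0.03. The 3 genes that encode the same proton-carrying c subunit did not pass by their brightest probes: ATP5MC1 differed by -0.20, ATP5MC2 by -0.19 and ATP5MC3 by 0.06 (limma adjusted p = 0.186, 0.109 and 0.682). ATP5MC3 was dim, at 6.05 and 5.81 in the control and 6.08 and 5.90 in the knockdown line, so a change there may be understated. Dimmer second probes of 3 subunits passed over probes: ATP5MC1 at 0.39 (adjusted p 0.0268 over probes), ATP5PB at 0.39 (0.0436) and ATP5ME at -0.47 (0.0112). For ATP5MC1 and ATP5ME, whose brightest probe gave 0.12, the direction thus depended on the probe.

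The one gene of complex V that rose was ATP5IF1, an inhibitor that blocks ATP hydrolysis when the synthase runs backwards. It measured 11.03 and 11.00 in the control and 11.62 and 11.45 in the knockdown line. The lines were well apart (1.43-fold, log2 difference 0.52, SE 0.09, limma adjusted p = 0.0069, 0.051 without control array 2). A second ATP5IF1 probe gave -0.04, with an adjusted p of 0.831 over probes, so the rise rests on the brighter probe, and averaged over probes the difference was 0.24 (limma adjusted p = 0.102). Across the members, 24 had more than 1 probe above background. In 6 that did not pass by the brightest probe another probe did (ATP5MC1, ATP5ME, ATP5PB, SDHC, UQCR10 and the assembly factor NDUFAF7, at 0.68). In 16 of the 24 the probes gave the same call, in none did probes pass in opposite directions, and the median gap between the highest and lowest probe was 0.24.

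Chromosome 16 carried 5 of the 101 members. NDUFB10, NDUFAB1, UQCRC2 and COX4I1 were measured and all 4 rose, with a median of 0.58, while COX6A2 was not well above background. The chromosome as a whole was higher in the knockdown line: of its 458 measured genes 256 rose (55.9%) and 23 fell (5.02%), with a median of 0.36. Off chromosome 16, 1589 of 9066 genes rose (17.5%) and 1947 fell (21.5%), with a median of -0.03. Whether the members' rise is part of a chromosome-wide difference between the lines or is specific to them was not tested. Without chromosome 16, 13 of 80 members rose (16.2%), 6 fell (7.5%) and the median was 0.03, and complex III kept 3 of 8.

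Neighbouring genes were set beside each member that passed, as the 10 nearest measured genes, 5 on each side. Of the 17 members that rose, 7 lay above every neighbour (NDUFB10, NDUFA6, NDUFA8, NDUFA9, NDUFV1, SDHAF4 and CYC1), and of the 6 that fell, none lay below every neighbour. Passing the test itself favours lying beyond the neighbours, and the same share over all genes that passed was not computed. Surroundings are given next for the members on chromosome 16 and for NDUFB3, NDUFS1, CYC1 and NDUFB5, picked with their values in view. Around NDUFB10, 6 neighbours rose and none fell, with a median of 0.37, and the gene lay above the highest of them at 0.68. Around NDUFAB1 and around COX4I1, 5 rose and 1 fell, with medians of 0.30 each, and around UQCRC2, 3 rose and 1 fell, with a median of 0.18. NDUFB3 on chromosome 2 lay among genes that were lower: 8 of its 10 neighbours fell, with a median of -0.78. NDUFS1, also on chromosome 2, had 6 neighbours that fell and 2 that rose, with a median of -0.42. CYC1 on chromosome 8 went the other way from its surroundings, where 6 fell, none rose and the highest difference was 0.19, against 0.39 for CYC1. NDUFB5 on chromosome 3 rose among genes of which 6 also rose, with a median of 0.42.

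**Figure D3:**
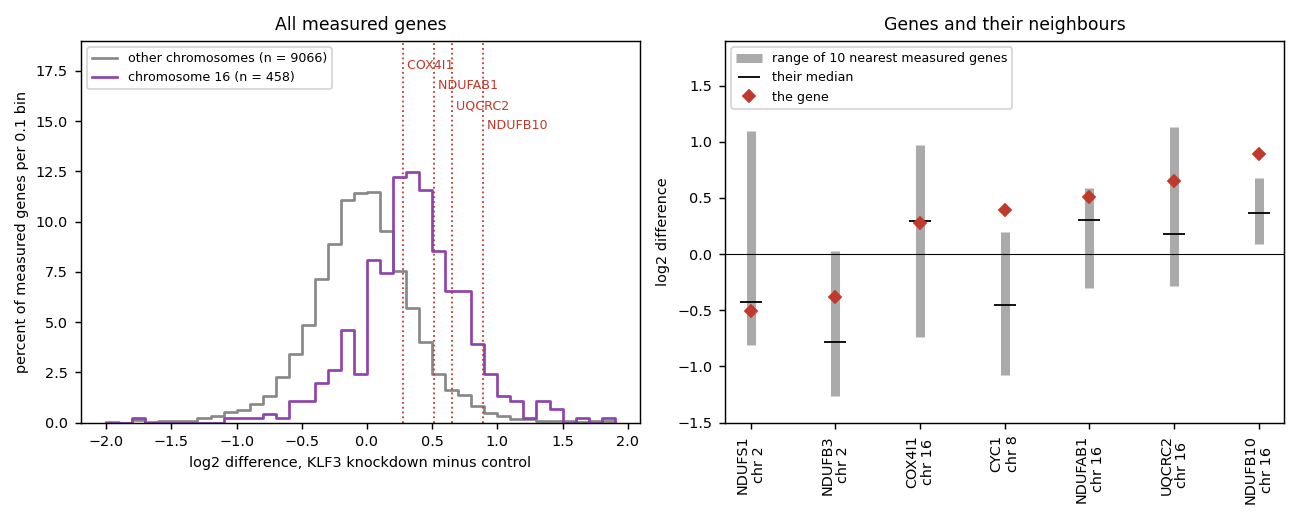
Left, distribution of the log2 difference (knockdown minus control) as percent of genes per bin of 0.1, for the 458 measured genes of chromosome 16 (purple) and the 9066 of other chromosomes (grey), with dotted lines at the 4 members on chromosome 16. Right, 7 members (diamonds) beside the range (grey bar) and median (black line) of their 10 nearest measured genes; of these 7, NDUFB10 and CYC1 lie above the range of their neighbours.

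The promoters of the 4 members on chromosome 16 are shown because all 4 rose, as did 256 of the chromosome's 458 measured genes. Each is the 120 bases just before the RefSeq gene start, in GRCh38.p14, read 5′ to 3′ on the gene's strand. NDUFB10 lies on the plus strand at chr16:1959418-1959537, NDUFAB1 on the minus strand at chr16:23596317-23596436, UQCRC2 on the plus strand at chr16:21953241-21953360 and COX4I1 on the plus strand at chr16:85799575-85799694. Capitals would mark a searched motif, and none occurs.
NDUFB10: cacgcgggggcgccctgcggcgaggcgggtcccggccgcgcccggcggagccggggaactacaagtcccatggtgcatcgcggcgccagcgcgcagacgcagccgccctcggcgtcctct
NDUFAB1: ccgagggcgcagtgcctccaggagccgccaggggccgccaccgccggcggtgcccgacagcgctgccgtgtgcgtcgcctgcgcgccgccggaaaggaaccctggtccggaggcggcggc
UQCRC2: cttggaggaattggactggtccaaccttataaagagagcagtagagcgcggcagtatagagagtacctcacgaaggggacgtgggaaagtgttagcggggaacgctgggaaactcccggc
COX4I1: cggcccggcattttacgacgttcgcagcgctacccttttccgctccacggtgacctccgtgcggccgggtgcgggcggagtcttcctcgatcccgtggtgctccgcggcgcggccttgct

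The motifs searched, on both strands of the 250 bases before the start, were the CACCC box CACACCC, the GC box GGGCGGG, the ETS motif CCGGAAG that GABP binds, the palindromic NRF1 motif and the YY1 motif AAGATGGCG. The CACCC and GC boxes are letters that Krüppel-like factors can bind, and GABP, NRF1 and YY1 are known regulators of respiratory genes. Of the 101 members 82 had a promoter in the RefSeq table. The ETS motif occurred in 20 of the 82 (24.4%), against 8.82% of all 27305 promoters, and the NRF1 motif in 3 (3.66%), against 1.13%. The YY1 motif occurred in 1 (1.22%), against 0.641%. The GC box occurred in 22 (26.8%), against 31.4%, and the CACCC box in 5 (6.1%), against 6.52%. A match is a stretch of letters and not a site shown to be bound.

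Split by direction of change, the motif counts were small. Of 15 members that rose and had a promoter, the CACCC box occurred in 1, the GC box in 3 and the ETS motif in 2. Of 6 that fell, the CACCC box occurred in none, the GC box in 2 and the ETS motif in 1. Of 49 that did not pass, the same motifs occurred in 3, 14 and 15. SDHD and UQCR11, which rose, are shown because their windows hold several of these motifs in capitals, in part as the reverse complement. SDHD lies on the plus strand at chr11:112086753-112086872, with NRF1, CACCC and ETS letters in that order, and UQCR11 on the minus strand at chr19:1605463-1605582, with ETS letters at 2 places and then the GC box, none overlapping another.
SDHD: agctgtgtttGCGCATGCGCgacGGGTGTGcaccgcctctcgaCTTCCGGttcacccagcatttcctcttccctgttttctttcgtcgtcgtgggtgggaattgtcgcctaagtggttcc
UQCR11: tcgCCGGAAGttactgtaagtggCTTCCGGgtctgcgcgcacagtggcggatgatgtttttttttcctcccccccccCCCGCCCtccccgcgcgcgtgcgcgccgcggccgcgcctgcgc

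Genes that serve the complexes without being part of them were read from 7 lists. Of 103 listed genes 93 were measured, 23 rose (24.7%) and 20 fell (21.5%), with a median of 0.05, close to the shares over all genes in both directions. Their median absolute difference was 0.25, against 0.14 for the members. The genes named below are those with the smallest adjusted p in each list.

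Assembly factors of complex I outside the NDUF symbols had 4 higher and 2 lower of 11. TMEM186, on chromosome 16, rose from 6.83 and 7.09 to 7.80 and 7.67 (limma adjusted p = 0.00394). FOXRED1 rose by 0.39 and TMEM126A fell by 0.36 (limma adjusted p = 0.012 and 0.0152), and both calls were lost without control array 1 (0.0797 and 0.0834) or 2 (0.0629 and 0.0818). For complex III, 2 of 8 assembly genes rose and 3 fell. LYRM7, the chaperone of the Rieske protein, rose from 9.32 and 9.47 to 9.94 and 9.90 (limma adjusted p = 0.00664, 0.0505 without control array 1). UQCC5 and UQCC1, which act early around cytochrome b, went down, by -0.54 and -0.51 (limma adjusted p = 0.00458 and 0.00883), the latter call being lost without control array 1 (0.062).

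In complex IV assembly, the longest list, 10 of 27 genes rose (37%, against 36.4% in complex I assembly and 19.4% of all genes) and 4 fell, with a median of 0.10. COX20, a chaperone of the mitochondrially encoded subunit COX2, measured 8.53 and 8.45 in the control and 9.15 and 9.32 in the knockdown line. The lines were well apart (log2 difference 0.75, limma adjusted p = 0.00226). COA8 and COX11, the latter a copper-delivery protein, rose by 0.68 and 0.58 (limma adjusted p = 0.00439 and 0.00367). All 3 calls held whichever array was left out. In complex V assembly 2 of 6 rose and 1 fell. ATPAF2, a chaperone of the alpha subunit, and TMEM70 rose by 0.48 and 0.42 (limma adjusted p = 0.00768 and 0.00913), calls lost without control array 1 (0.0605 and 0.0619) and, for TMEM70, also without control array 2 (0.0604). OXA1L, an inner-membrane insertase, fell by 0.41 (limma adjusted p = 0.0201), and kept its call only without knockdown array 1 (0.0213).

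Of 14 genes of coenzyme Q synthesis and cytochrome c, 2 rose and 2 fell. COQ8A, an atypical kinase of the pathway, measured 9.65 and 9.62 against 8.90 and 8.88, with a fall of 0.75 (limma adjusted p = 0.00135). COQ7, a hydroxylase, and its partner COQ9 both lie on chromosome 16 and rose by 0.83 and 0.57 (limma adjusted p = 0.0072 and 0.0038). In the citric acid cycle 2 of 12 rose and 2 fell. SUCLG2 of succinyl-CoA synthetase rose by 0.51 and IDH3B of isocitrate dehydrogenase by 0.52, and OGDH of the oxoglutarate dehydrogenase complex fell by 0.56 (limma adjusted p = 0.00496, 0.0145 and 0.0167). IDH3B and OGDH lost the call without control array 1 (0.0786 and 0.0544) or 2 (0.0776 and 0.105).

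The list of mitochondrial DNA expression and nuclear control had the highest share of lower genes among the 7. Of 15 measured, 6 fell (40%, against 37.5% in complex III assembly and 20.7% of all genes) and 1 rose, with a median of -0.19. ESRRA, a nuclear receptor that activates respiratory genes, measured 8.76 and 8.68 in the control and 7.95 on both knockdown arrays. The lines were far apart (log2 difference -0.77, SE 0.08, limma adjusted p = 0.00131). PPRC1, a coactivator of the PGC-1 family, measured 9.06 and 9.18 against 8.41 and 8.50, and POLG, the mitochondrial DNA polymerase, 8.52 and 8.64 against 8.03 and 7.88. Both were lower on both knockdown arrays (limma adjusted p = 0.00302 and 0.00455), and the calls of ESRRA, PPRC1 and POLG held whichever array was left out. The others that fell were PPARGC1B, TWNK and GABPB1, at -0.64, -0.68 and -0.37, and SSBP1 rose by 0.43. TFAM, GABPA and YY1 differed by 0.18, 0.02 and 0.06 without passing. The genes of this list other than ESRRA, PPRC1 and POLG are named beyond the smallest adjusted p-values, with their values in view.

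**Figure D4:**
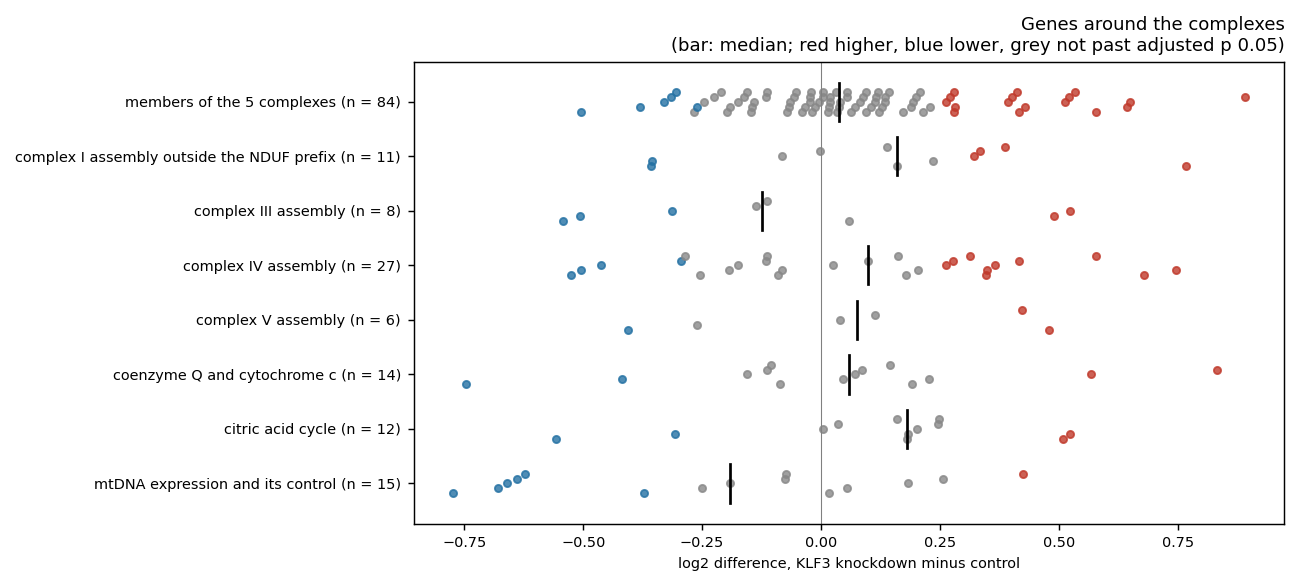
Log2 difference of knockdown minus control (horizontal axis) for each measured gene of the 5 complexes and of 7 lists around them, with a black bar at each median. Red genes rose, blue genes fell and grey genes did not pass the adjusted p of 0.05; the members gather around 0.04, and the list of mitochondrial DNA expression and its control has 6 genes lower and 1 higher.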

How the data were processed

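RNA of 2 control and 2 KLF3-knockdown arrays was analysed. The deposited scanner table gives linear intensity, not normalized between arrays, and a detection p-value for 47322 probes, per the file headers. The authors' processed table keeps the same rank order of intensity and served as an alternative; the sources used here do not name the program behind it. Intensities were corrected and quantile-normalized with neqc (limma 3.58.1, R 4.3.3; offset 16, control level from the detection p-values), so log2 differences understate changes of dim genes. Probes with a detection p under 0.01 on both arrays of at least 1 line were kept (15722). Symbols came from the platform annotation, updated by gene identifier through RefSeq GRCh38.p14: of the probes, 30112 had 1 symbol, 8 several and 17202 were unlisted. The brightest kept probe stood for a gene (9530 genes). One limma model (lmFit, eBayes, two-sided, 2 residual and 4.33 prior degrees of freedom, no covariates) gave log2 differences, SEs and 95% intervals, with Benjamini-Hochberg adjustment over all genes. The fit was run on simulated data with independent noise and far fewer changed genes than passed here. That run checked the code and cannot vouch for the calls. With 2 arrays a line, the smallest exact permutation p is 0.333. Only 4 arrays limit the precision. The deposited files name no genome build, and coordinates are those of RefSeq.

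The members and lists were chosen with earlier results of these data known. Genes were named by rule: members on chromosome 16, up to 3 genes with the smallest adjusted p per complex and direction, complex II subunits, isoform sets, up to 3 genes per list, and members whose probes passed in opposite directions, of which there were none. Other named members were picked with their values in view. Replicates carry no numbers in the labels and were numbered in accession order. Alternatives covered background correction, scaling, the detection filter, the probe rule, the authors' table, an intensity trend, a replicate block and leaving out each array.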

Additional observations from a re-analysis of the deposited data

How the results depend on the processing

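Against 17 members higher and 6 lower, no background correction and the authors' processed table each gave 10 lower, eBayes with trend 11 lower, and median scaling 11 higher. Over all genes, too, more were lower than the 1971 of the main fit. They numbered 2325 without background correction, 2326 in the authors' table and 2336 with trend. Without a detection filter 10 of 95 members were higher and 2 lower, beside 1189 higher and 1209 lower of all 20046 genes. Median scaling also moved the split over all genes from 1845 higher and 1971 lower to 1286 and 2151. Complex medians (0.054 for I, 0.019 for II, 0.015 for III, 0.055 for IV and 0.039 for V on the log2 scale) all lay near 0. With median scaling they were 0.03493 for I, 0.002304 for IV and -0.0003301 for V. With the mean of probes they were 0.07394 for I, 0.1557 for II, 0.3839 for III and 0.09519 for V, and UQCR10 turned from -0.04 to 0.38. The complex V median was 0.03195 without background correction, 0.03575 without a detection filter and 0.03452 in the authors' table. Leaving out 1 array gave 5 to 12 higher, 0 to 3 lower, 2 to 4 higher on chromosome 16, and medians of 0.03038 to 0.06616 for I, -0.02293 to 0.1344 for II, -0.03358 to 0.06763 for III, 0.01498 to 0.06459 for IV and 0.03056 to 0.08156 for V. The line left with 1 array is assumed there to vary like the other. Over all genes, too, fewer passed in each direction in these fits. The cause of these changes was not tested. Among structural subunits, a selection added after seeing the data like that off chromosome 16, 15 rose and 4 fell.

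Arrays of the same number did not deviate together (r = -0.006 across genes), which cannot show whether they were run as pairs. The fit with a replicate block gave 12 members higher and 5 lower, with 3 of 4 higher on chromosome 16. Over all genes it gave 1724 higher and 1830 lower, against 1845 and 1971 in the main fit.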
